A study of Mus musculus with 12 samples.

Results

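Of the 1192075 regions in the count table, 2916 (0.245%) had 1 or more raw counts in every one of the 12 libraries, and these shared regions are described here. They were chosen by the raw counts themselves, so a region absent from any library was left out by construction, and the levels of all 3 marks are given as a description with no test. The libraries profile 3 histone marks in endothelial cells isolated from mouse lung, in 6 groups of 2 replicates. Wild-type cells (WT) are labelled negative for the Cre recombinase, and cells that lack cystathionine gamma-lyase (CSE-KO) are labelled positive for it, so Cre itself and the knockout cannot be told apart. The labels do not give the driver of Cre, the strain, the age or the sex of the mice, or whether the cells of several mice were pooled. Replicates are numbered 1 and 2, and nothing ties them to separate animals. The p-values therefore refer to the spread among these libraries alone, which may be technical. Positions and genes of the regions were not used here, so neither the endothelial identity of the cells nor the loss of the CSE gene was checked.

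CSE makes cysteine from cystathionine and is a main source of hydrogen sulfide in the vessel wall. Trimethylation of lysine 4 of histone H3 (H3K4me3) marks the start sites of active and poised genes. Acetylation of lysine 27 (H3K27ac) marks active promoters and enhancers, where it neutralises the charge of the histone tail, and acetylation of lysine 23 (H3K23ac) is a further modification of the same tail. In ACT-seq an antibody to the mark carries the Tn5 transposase to chromatin, which is then cut and tagged in place, so that the number of reads in a region measures how much tagged DNA the antibody directed there.

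The rule kept the far end of a steep distribution. A total of 560127 regions had no count in any library and 631948 had a count in at least 1, of which the shared regions are 0.461%. The most common number of libraries among counted regions was 4, with 149380 regions, and the number then fell at each step to 6293 regions counted in 10 libraries, 4437 in 11 and 2916 in 12. Just inside the threshold lay 1346 shared regions (46.2%) with a single count as their lowest value. With at least 2 counts in every library 1570 regions were left, with at least 5 counts 529, with at least 10 counts 123 and with at least 20 counts 18. Just outside it, the regions counted in 11 libraries had a median summed count of 142, against 237.5 inside.

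One library set much of the boundary. Among the 4437 regions counted in 11 libraries, the missing one was WT H3K23ac replicate 2 at 2253 (50.8%), CSE-KO H3K23ac replicate 1 at 599 (13.5%) and CSE-KO H3K27ac replicate 1, the deepest library, at 7 (0.158%). Without WT H3K23ac replicate 2 the other 11 libraries shared 5169 regions, whereas leaving out any other library gave 2923 to 3515. The H3K4me3 libraries, which had the lowest totals of the series, set the boundary less often than this one.

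**Figure D1:**
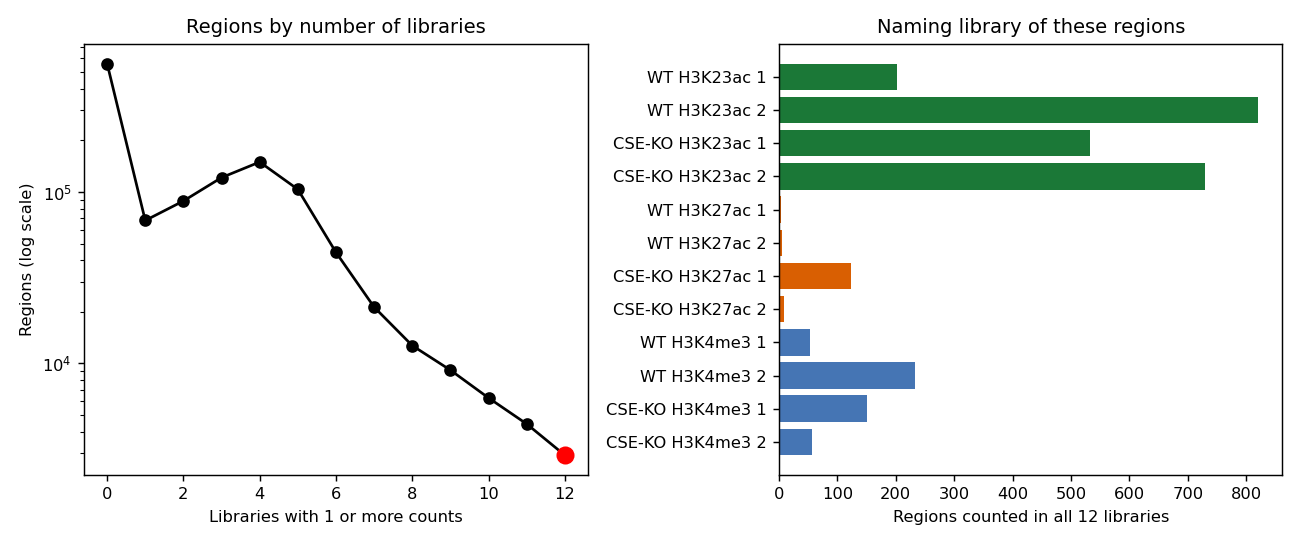
Left, number of regions (log scale) by the number of libraries with 1 or more counts, with the 2916 shared regions in red; right, number of shared regions by the library in whose list they were named, coloured by mark. The 4 H3K23ac lists name 2285 of the 2916, and 3 of the 4 H3K27ac lists name 8 or fewer.

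Each region carries the number of 1 of 12 lists, read here as the library in which it was named, and 78.4% of the shared regions came from the lists of H3K23ac. Those lists named 2285, from 424552 rows (0.538%). The H3K4me3 lists named 492, from 199413 rows (0.247%), a share of the shared regions (16.9%) close to their share of the table (16.7%). The H3K27ac lists are the longest, with 568110 rows or 47.7% of the table, and named 139 (0.0245%), or 4.77% of the shared regions. Per list, the share of rows that were counted everywhere was 0.642% ± 0.449 for H3K23ac, 0.0176% ± 0.0264 for H3K27ac and 0.233% ± 0.134 for H3K4me3 (SD, n = 4 lists each), so the lists of a mark spread widely around its mean.

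Lists of the same mark and genotype differed widely in what they contributed. WT H3K23ac replicate 2 named 821 shared regions in the shortest H3K23ac list (68393 rows, 1.2%), and WT H3K23ac replicate 1 named 202 in the longest (147936 rows, 0.137%). The CSE-KO H3K23ac lists named 533 and 729. Among H3K4me3 lists, WT replicate 2 named 233 and WT replicate 1 named 53, and the CSE-KO lists named 150 and 56. The H3K27ac lists named 3 and 5 for WT, 123 and 8 for CSE-KO, where the 123 belong to the deepest library. In each pair of H3K27ac or H3K4me3 replicates the longer list named more shared regions, and in both pairs of H3K23ac replicates the shorter one did.

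The naming library was favoured in its own regions, and in none more than WT H3K23ac replicate 2. In that library the shared regions of its own list had a median of 74 counts and those of the other 11 lists 6, or 40 against 3.25 in CPM (counts scaled to the library total). The contrast was smaller in the other H3K23ac libraries, at 24.8 and 9.56 CPM in WT replicate 1, 34.6 and 11 in CSE-KO replicate 1 and 36.8 and 13 in CSE-KO replicate 2. In H3K4me3 libraries it ran from 69 against 36.8 CPM in CSE-KO replicate 2 to 94.1 against 28.4 in WT replicate 2. In 12 of 12 libraries the median was higher in the own list.

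H3K4me3 was the most abundant mark on the shared regions, on the scale of library totals. In H3K4me3 libraries the shared regions held 15.4% ± 0.187 of all counts for WT against 15.6% ± 1.21 for CSE-KO (SD, n = 2 libraries). In H3K23ac libraries they held 5.06% ± 0.916 and 6.76% ± 0.777, and in H3K27ac libraries 2.1% ± 0.453 and 1.87% ± 0.0275. The lowest and highest shares of the 12 were 1.78% (95% Wilson interval 1.75 to 1.8) in WT H3K27ac replicate 1 and 16.5% (16.4 to 16.6) in CSE-KO H3K4me3 replicate 1. Wilson intervals cover counting error only. The 3 marks did not overlap in this share, and once each library's own list was left out of both its counts and its total the means stood at 24.6% ± 5.03 for H3K23ac, 18.6% ± 1.55 for H3K4me3 and 2.47% ± 0.46 for H3K27ac (SD, n = 4 each), with H3K23ac the highest in the mean but overlapping H3K4me3 (19.5% to 31.1% against 17.2% to 20.7%). Total counts ran from 396441 to 4242014 per library.

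The share by genotype is a description, since the same counts chose the regions and 2 libraries against 2 cannot pass a permutation test. The CSE-KO minus WT difference was 1.71 percentage points for H3K23ac, where both CSE-KO libraries (6.21% and 7.31%) lay above both WT libraries (4.41% and 5.7%). Outside the own lists the same difference was -1.44 points. For H3K27ac and H3K4me3 the groups overlapped, with differences of -0.223 and 0.168 points.

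The level per region followed the same order of marks. The median region had 36.6 and 32 CPM in the WT H3K4me3 libraries and 39 and 36.8 CPM in CSE-KO. Its H3K23ac level was 10.2 and 7.03 CPM for WT, 14.1 and 17 CPM for CSE-KO. Its H3K27ac level was 4.44 and 6.3 CPM for WT, 4.71 and 4.66 CPM for CSE-KO. In raw counts these medians are 14.5 to 22 for H3K4me3, 13 to 27 for H3K23ac, and 6 to 7 for 3 of the H3K27ac libraries with 20 in the deep CSE-KO replicate 1, so single H3K27ac values are coarse. WT H3K23ac replicate 2 had the widest spread of its mark, with an interquartile range of 3 to 54 counts and a single count at 478 regions (16.4%), against 15 (0.514%) in CSE-KO H3K27ac replicate 1.

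**Figure D2:**
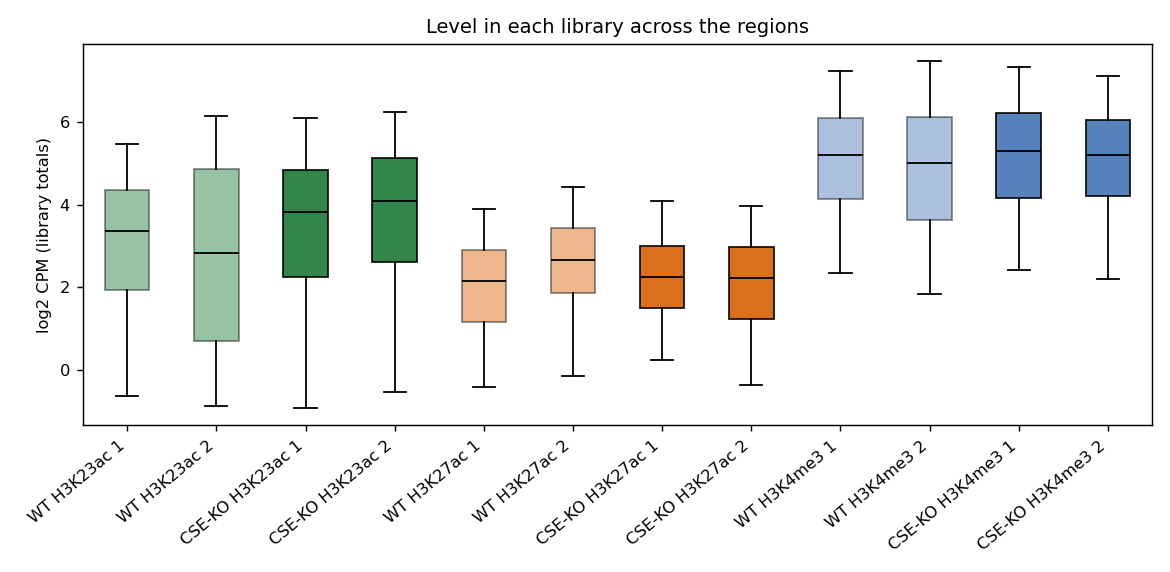
Box plots of log2 CPM over the 2916 shared regions in each library (box, interquartile range; line, median; whiskers, 5th to 95th percentile; pale, WT; dark, CSE-KO). The H3K4me3 medians (32 to 39 CPM) lie above every H3K23ac median (7.03 to 17 CPM), and those lie above the H3K27ac medians (4.44 to 6.3 CPM).

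Single regions mostly kept this order, with exceptions in each direction. By the mean of log2 CPM over its 4 libraries, H3K4me3 was the highest mark at 2457 regions (84.3%), H3K23ac at 340 (11.7%) and H3K27ac at 119 (4.08%). In 1034 regions (35.5%) all 4 H3K4me3 libraries lay above all 8 others, and in 489 (16.8%) all 4 H3K27ac libraries lay below all 8 others. H3K23ac was above all others in 24 regions and H3K27ac in 1. Scaling is by library totals, so these orders compare shares of each library and not amounts of modified histone.

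The ratio of H3K4me3 to H3K27ac depended on where a region was named. Over all shared regions the median log2 ratio was 3.06 (interquartile range 1.66 to 4.08), and 92.2% of regions had more H3K4me3. In regions of the H3K4me3 lists the median was 4.17, in those of the H3K23ac lists 2.88 and in those of the H3K27ac lists 0.83. The naming mark is favoured in the first and last of these, so the middle value is the one that neither of the compared marks named. Within H3K23ac lists the 5th percentile was -0.47 and the 95th 4.92, which spans regions with little H3K4me3 and regions dominated by it.

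The most skewed regions show how far the rule reaches. The region peak6_53129, named in WT H3K4me3 replicate 2, was counted for H3K4me3 76 and 115 times in the WT libraries, and 95 and 82 times in the CSE-KO ones, which is 188 ± 14.8 CPM (SD, n = 4). Its H3K23ac counts were 2, 2, 8 and 3 and its H3K27ac counts 5, 2, 21 and 2, so its H3K4me3 mean was 73.1 times the mean of the 8 other libraries. It belongs to the set only through a few reads in each of those. The region peak3_64708, named in WT H3K27ac replicate 1, reached 139 and 81 H3K27ac counts in the WT libraries, 425 and 157 in the CSE-KO ones, which is 99.5 ± 20.2 CPM, and H3K4me3 counts of 2, 4, 8 and 1, or 7.16 ± 5.08 CPM (SD, n = 4 each). All 4 H3K27ac libraries were above the 8 others there, by 8.85 times in the mean. The region most skewed to H3K23ac, peak7_102497, reached 26 and 140 counts of it in the WT libraries, 68 and 36 in the CSE-KO ones, 7.57 times the mean of the other marks, with 2 to 13 counts in each of the 8 other libraries.

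At the other end, peak9_179237 had similar mean levels of the 3 marks. Its counts were 50, 34, 54 and 30 in H3K23ac (both WT, then both CSE-KO), 10, 40, 101 and 21 in H3K27ac and 12, 13, 13 and 10 in H3K4me3. In CPM the marks stood at 24.7 ± 6.37, 20.9 ± 12.1 and 24.9 ± 3.61 (SD, n = 4 each), a coefficient of variation of 32.5% over the 12 libraries. Its lowest and highest values, 7.4 and 36 CPM, were both in WT H3K27ac. It was the most even of the 123 regions with at least 10 counts everywhere, and the next, peak7_75516, reached 45.9%. Over all shared regions the median coefficient was 101% and the highest 226%, so an even level under the 3 antibodies was the exception.

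The regions highest on average were rich in H3K4me3, the mark with the highest CPM, so a ranking by mean CPM favours it. That they also had counts under the other marks is required by the rule. The region peak2_59414, with both WT libraries given first and then both CSE-KO ones, had H3K4me3 counts of 435, 381, 447 and 340, H3K23ac counts of 339, 291, 368 and 131, and H3K27ac counts of 34, 56, 136 and 36. That came to 837 ± 181, 164 ± 55.2 and 33.9 ± 11.4 CPM (SD, n = 4 each). The region peak7_45048, second by the mean, had 671 ± 119 CPM of H3K4me3, 301 ± 119 of H3K23ac and 61.3 ± 23 of H3K27ac. The next by the mean, peak8_95403 and peak1_87926, had 732 ± 75.7 and 603 ± 60.9 CPM of H3K4me3. Both came from H3K23ac lists like the first pair, as did 78.4% of all shared regions. No few regions dominated: the top 1% (29 regions) of each library held 6.29% to 11.9% of that library's counts on the shared regions.

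Agreement between libraries over the shared regions was strong for H3K4me3, moderate for H3K27ac and weak for H3K23ac. The median Spearman coefficient of log2 CPM was 0.814 for H3K4me3 (6 pairs, 0.782 to 0.858; Pearson's median 0.782), 0.655 for H3K27ac (0.593 to 0.744; 0.647) and 0.227 for H3K23ac (0.119 to 0.313; 0.214). These are coefficients across 2916 regions, which are not replicates. Pairs of the same genotype and pairs across genotypes ran alike, with medians of 0.82 and 0.814 for H3K4me3, 0.656 and 0.655 for H3K27ac and 0.23 and 0.208 for H3K23ac. WT H3K23ac replicate 2 had the lowest coefficients of its mark, 0.119 to 0.159. Leaving out the regions of the compared libraries' own lists raised the H3K23ac median to 0.313 (0.263 to 0.416) and left it below the lowest pair of either other mark, 0.592 for H3K27ac and 0.768 for H3K4me3.

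Depth differed between the marks, and its part in the agreement was not tested. The H3K4me3 libraries had the lowest totals of all, and their median counts on the shared regions (14.5 to 22) were close to those of H3K23ac (13 to 27) and above those of 3 of the 4 H3K27ac libraries (6 to 7). In the 529 regions with at least 5 counts in every library the medians were 0.84 for H3K4me3, 0.575 for H3K27ac and 0.253 for H3K23ac. Replicates of all 6 groups differed by more than counting noise, with a chi-square per degree of freedom of 22.2 and 19.2 for H3K23ac in WT and CSE-KO, 1.96 and 1.54 for H3K27ac, and 3.79 and 2.2 for H3K4me3. All 12 were kept as separate libraries.

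**Figure D3:**
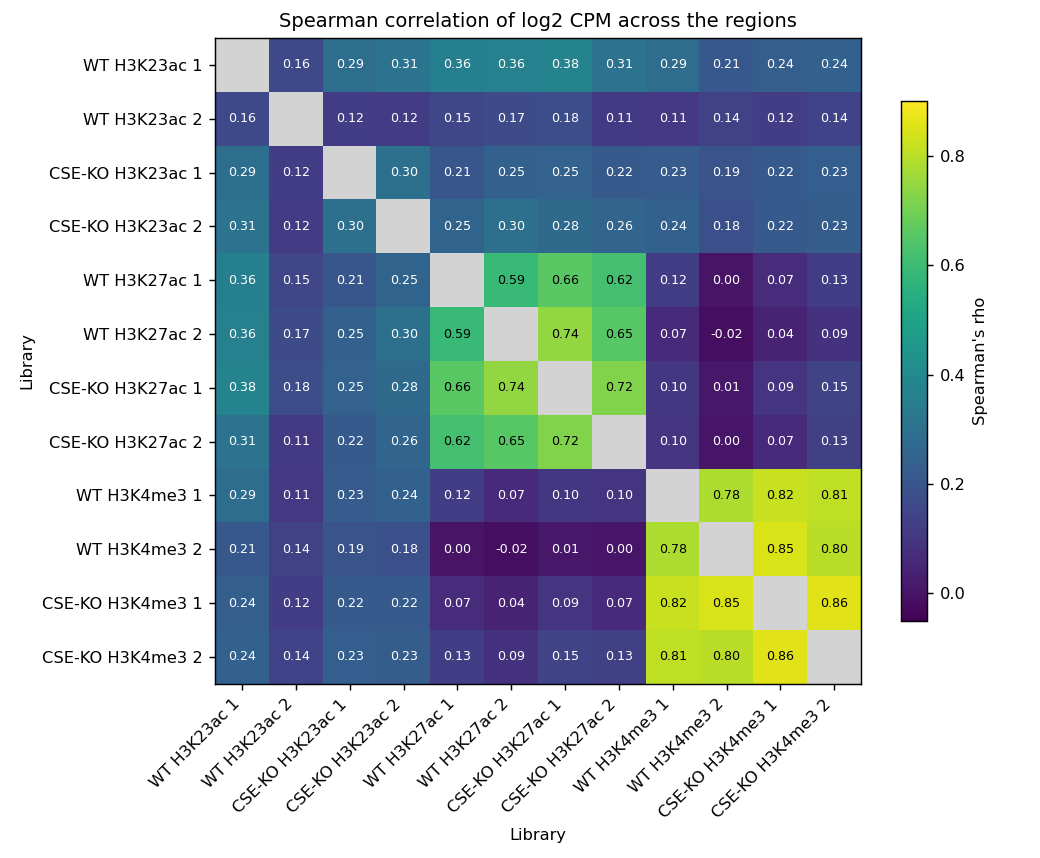
Spearman's coefficient of log2 CPM across the 2916 shared regions for each pair of libraries (diagonal left grey). The H3K4me3 block (0.78 to 0.86) and the H3K27ac block (0.59 to 0.74) stand out, and the H3K23ac block (0.12 to 0.31) is no higher than H3K23ac with H3K27ac (0.11 to 0.38).

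The H3K23ac signal of a region often came mainly from 1 library. At the median region 52.8% of the summed H3K23ac CPM lay in its highest library, against 36.6% for H3K27ac and 35.4% for H3K4me3, where equal libraries would give the lowest possible share. One library held over 50% at 1646 regions (56.4%) for H3K23ac, 224 (7.68%) for H3K27ac and 181 (6.21%) for H3K4me3. The highest library was CSE-KO replicate 2 at 988 regions, CSE-KO replicate 1 at 762, WT replicate 2 at 754 and WT replicate 1 at 412. The median ratio of the highest to the lowest H3K23ac library was 14, against 2.61 for H3K27ac and 2.37 for H3K4me3. An H3K23ac library named 78.4% of these regions, against 4.77% for H3K27ac and 16.9% for H3K4me3, and the naming library is favoured in its own list. The part of the naming in this contrast between marks was not tested.

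Between marks, H3K23ac had low coefficients with each of the others, and H3K27ac and H3K4me3 had the lowest. Over the 16 pairs of an H3K23ac and an H3K27ac library the median Spearman coefficient was 0.252 (0.113 to 0.375), and for H3K23ac with H3K4me3 it was 0.219 (0.107 to 0.291). For H3K27ac with H3K4me3 it was 0.0801 (-0.0161 to 0.146). The medians that involve H3K23ac lie around the 0.227 within that mark, and the median of H3K27ac with H3K4me3 lies below it. Without the own lists, however, H3K23ac stood at 0.313 with itself, 0.26 with H3K27ac and 0.248 with H3K4me3, in overlapping ranges. On the mean of 4 libraries per mark, which lowers the noise, the coefficients were 0.403, 0.311 and 0.0733 in the same order (Pearson's 0.425, 0.321 and 0.0884). All of them describe regions that had to be counted under every antibody, which removes regions with 1 mark alone.

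The near absence of a relation between H3K27ac and H3K4me3 was not seen in every list. In the 492 shared regions named in H3K4me3 libraries the 2 marks had a Spearman coefficient of 0.475 (Pearson's 0.441), whereas it was 0.0872 in the 2285 of the H3K23ac lists and 0.0601 in the 139 of the H3K27ac lists. H3K23ac with H3K27ac changed less, at 0.412, 0.42 and 0.469 in the H3K4me3, H3K23ac and H3K27ac lists. H3K23ac with H3K4me3 stood at 0.498, 0.343 and 0.228. H3K4me3 exceeded H3K27ac at 489 of the 492 regions of the H3K4me3 lists, at 2099 of the 2285 of the H3K23ac lists and at 101 of the 139 of the H3K27ac lists. The difference between the lists was not tested.

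**Figure D4:**
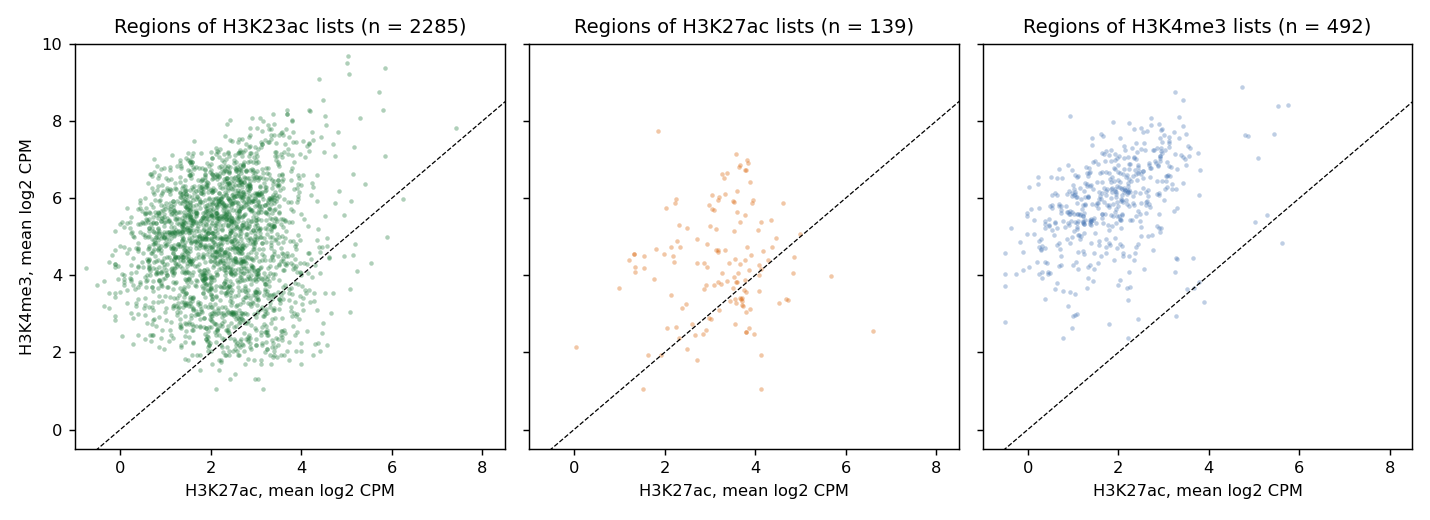
Mean log2 CPM of H3K27ac (x axis) and of H3K4me3 (y axis) for each shared region, by the mark of the list that named it; the dashed line marks equal CPM. Regions of the H3K4me3 lists form 1 rising cloud above the line, and those of the H3K23ac lists add regions at or below the line.

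Whether loss of CSE changed a mark on the shared regions was tested within each mark over all regions that passed a filter on low counts, with edgeR's quasi-likelihood test on library totals. No shared region passed an adjusted p of 0.05 for any mark. The test covered 2454 of the 2916 for H3K23ac, 943 for H3K27ac and 2209 for H3K4me3, so 462, 1973 and 707 of them were too low to be tested. The lowest adjusted p among shared regions was 0.504, 1 and 0.23 in that order, and of all regions tested 0% were called for each mark. DESeq2, the second tool, used its own size factors in place of library totals. It called 1 shared region for H3K23ac (0.0407% of those tested, against 0.89% of all regions) and 0 for each of the others. Its unadjusted p was under 0.05 at 54 for H3K23ac (2.2%, against 8.2% of all regions). The number was 14 for H3K27ac (1.48%, against 1.56%) and 34 for H3K4me3 (1.54%, against 1.71%). The 54 for H3K23ac were 13 higher and 41 lower in CSE-KO, where all regions gave 479 and 535. Of the 110 H3K23ac calls that DESeq2 made over all regions, 108 were lower. The background keeps regions with no count in a library, which the rule left out, so these shares are a description. On counts simulated with the spread of the H3K23ac libraries, the edgeR test recovered none of the changes put in, at any size tried, whereas it recovered most of the largest ones for H3K27ac and H3K4me3. The absence of calls for H3K23ac therefore does not show that the mark was unchanged.

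Unadjusted p-values under 0.05, with library totals as size, were set against their share over all regions tested. For H3K23ac and on the higher side of H3K27ac they were less frequent on the shared regions. On the lower side of H3K27ac they were more frequent, and for H3K4me3 both sides were near the background. For H3K23ac 19 were higher in CSE-KO and 2 lower (0.774% and 0.0815% of those tested), where all regions gave 3.62% and 1.46%. For H3K27ac 6 were higher and 21 lower (0.636% and 2.23%), against 1.88% and 1.52%, and for H3K4me3 68 were higher and 23 lower (3.08% and 1.04%), against 3.37% and 1.06%. Regions that passed the filter had to be high in some group. The rule also left out regions with no count in a library, which the background keeps. These shares therefore describe and do not test the set. With TMM factors the H3K4me3 split was 37 higher and 59 lower (1.67% and 2.67%, against 2.23% and 2.14% of all regions), so its direction turned and its lower side also exceeded the background. The H3K23ac split was then 5 and 5 (0.204% each, against 3.4% and 1.86%), and the H3K27ac split 7 and 33 (0.742% and 3.5%, against 2.04% and 2.47%).

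Calls among the shared regions appeared when single libraries were left out, in fits that also made calls over all regions. Without WT H3K4me3 replicate 1 there were 23 for that mark (0.935%, against 1.54% of all regions), and without WT replicate 2 there were 2 (0.0852%, against 0.0942%). Without WT H3K27ac replicate 2 there were 14 (1.19%, against 0.553%), and without WT replicate 1 there was 1 (0.0719%, against 0.166%). For H3K23ac there were 6 without WT replicate 1 (0.217%, against 0.0398%), 4 without WT replicate 2 (0.146%, against 0.00957%) and 1 without CSE-KO replicate 1 (0.037%, against 0.00272%). In these fits the lone library is assumed to vary like the other group.

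Over all 2916 regions, tested or not, the log2 ratio of CSE-KO to WT mean CPM had a median of 0.57 for H3K23ac (interquartile range -0.62 to 1.78), -0.14 for H3K27ac (-0.56 to 0.28) and 0.05 for H3K4me3 (-0.32 to 0.49), where all regions tested had medians of 0.76, 0.05 and 0.11. The shared regions thus lay below the background median for each mark, but that background holds only regions that passed the filter. Among the shared regions that were tested, the fitted medians were 0.49, -0.10 and 0.04, against 0.75, 0.06 and 0.12 for all regions tested. Over all 2916 the SD of the log2 ratio was 1.84, 0.68 and 0.71. Between the replicates of WT it was 2.77, 1.14 and 1.19, and between those of CSE-KO 2.29, 0.92 and 0.89. A ratio of 2 means is narrower than a ratio of single libraries by construction, so the widths are not a test.

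The positive H3K23ac median depended on the scaling and on single libraries. It was 0.08 with TMM factors, -0.19 with DESeq2 size factors and -0.23 with size factors computed over the shared regions. The last of these centre each library on the shared regions, so they take out a common shift by construction. The median of all tested regions moved as well, from a fitted 0.75 with library totals to 0.19 with TMM factors and 0.04 with DESeq2 size factors. Without WT H3K23ac replicate 1 the median over the shared regions was 1.31, and without CSE-KO replicate 2 it was 0.17. Shared regions named in WT H3K23ac libraries had a median of -0.78 (1023 regions) and those named in CSE-KO H3K23ac libraries one of 1.66 (1262), each in the direction of the genotype that named them. In the 631 regions of the other marks' lists it was 0.6.

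For the other marks the naming genotype left a smaller trace. H3K4me3 had a median log2 ratio of -0.34 in the 286 shared regions of WT H3K4me3 lists and 0.29 in the 206 of CSE-KO lists, and 0.08 in the 2424 of the other marks' lists. H3K27ac had one of 0.25 in the 131 regions of CSE-KO H3K27ac lists and -0.16 in the 2777 of the other marks' lists. The H3K27ac median over all shared regions was 0.2 without WT H3K27ac replicate 2, so its sign rests on that library. The H3K4me3 median was 0.21 without WT H3K4me3 replicate 1 and -0.03 without CSE-KO H3K4me3 replicate 1. It was -0.09 with TMM factors, -0.10 with DESeq2 size factors and -0.09 with size factors over the shared regions, which centre each library on them by construction.

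**Figure D5:**
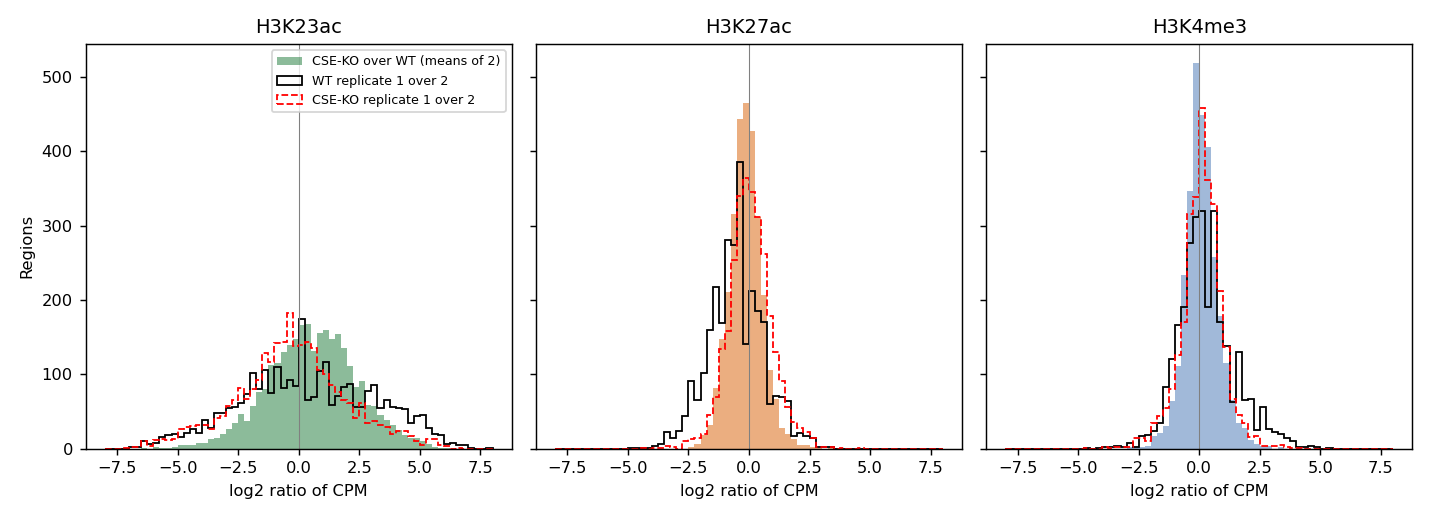
Histograms over the 2916 shared regions of the log2 ratio of CSE-KO to WT (filled; means of 2 libraries each) and of replicate 1 to replicate 2 within WT (black) and CSE-KO (red, dashed), by mark. The H3K23ac distributions are the widest (SD 1.84, 2.77 and 2.29), and in each mark the filled one has the smallest SD of the 3.

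Counted by library rather than by test, both CSE-KO libraries lay above both WT libraries at 816 shared regions for H3K23ac (28%), 337 for H3K27ac (11.6%) and 582 for H3K4me3 (20%). Over all tested regions these shares were 30.1%, 17.4% and 21.7%. Both CSE-KO libraries lay below both WT libraries at 263 (9.02%), 529 (18.1%) and 404 (13.9%), against 8.33%, 13.3% and 12.3%. The shares were near the background for H3K23ac and H3K4me3, and for H3K27ac fewer shared regions were higher and more lower. That background holds only regions that passed the filter, whereas 1973 of the shared regions were too low to be tested for H3K27ac. The H3K27ac median log2 ratio also turned to 0.2 without WT H3K27ac replicate 2. It was -0.0017 with size factors over the shared regions, which centre each library on those regions by construction. At 22 shared regions (0.754%) the CSE-KO libraries were above WT in all 3 marks, and at 3 (0.103%) below in all 3, beside 1.65% and 0.33% of the 908 regions tested in all 3 marks. Of those 908, 637 are themselves shared regions and all passed the filter, so the shares are not a contrast.

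One of those 22 regions, a set counted after the data had been seen, had the lowest p in the higher direction for 2 marks. The region peak8_95223, named in CSE-KO H3K23ac replicate 2, had 22 and 25 H3K4me3 counts in the WT libraries (49.9 ± 7.86 CPM) against 123 and 71 in the CSE-KO libraries (191 ± 38.8 CPM; SD, n = 2). Its H3K27ac counts were 2 and 1 against 44 and 17, and its H3K23ac counts 17 and 9 against 114 and 81. In each mark the groups did not overlap, which is the rule that defined the 22 regions and not a further observation. The log2 fold change with its standard error was 1.94 ± 0.39 for H3K4me3 (edgeR adjusted p = 0.23), 3.19 ± 0.82 for H3K27ac (adjusted p = 1) and 2.86 ± 1.76 for H3K23ac (adjusted p = 0.844), none past the threshold. For H3K4me3 it passed with no filter on low counts (edgeR adjusted p = 0.0466). It did not pass at a minimum count of 5 (edgeR adjusted p = 0.306), with TMM factors (edgeR adjusted p = 0.279) or with DESeq2 (adjusted p = 0.314). The H3K4me3 log2 fold change ran from 1.71 to 2.13 when a library was left out.

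The other regions of lowest p did not pass either. On the H3K23ac side peak8_66539 had 8 and 1 counts in the WT libraries (2.82 ± 3.22 CPM) against 88 and 175 in the CSE-KO libraries (82.7 ± 51.8 CPM; SD, n = 2). Its log2 fold change was 4.85 (standard error 1.74, edgeR adjusted p = 0.504). It ran from 4.00 to 7.08 when a library was left out. Its H3K4me3 was 31.3 ± 9.18 CPM for WT against 64.8 ± 18.9 for CSE-KO (log2 fold change 1.05, edgeR adjusted p = 1), and its H3K27ac 11.2 ± 3.28 against 11 ± 4.23 CPM. In the lower direction peak2_59522 had 374 and 899 H3K23ac counts in the WT libraries (362 ± 175 CPM) against 426 and 148 in the CSE-KO libraries (162 ± 86.5 CPM), a log2 fold change of -1.16 (standard error 0.42, edgeR adjusted p = 0.504). The 899 counts, in WT replicate 2, are the highest value of any shared region in any library, and that library named the region. This region passed without WT H3K23ac replicate 1 (edgeR adjusted p = 6.87e-12) and without CSE-KO replicate 1 (7.79e-05), with log2 fold changes of -1.58 and -1.84. Without WT replicate 2 its log2 fold change was -0.56 (edgeR adjusted p = 0.711) and without CSE-KO replicate 2 it was -0.70 (edgeR adjusted p = 0.687).

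For H3K4me3 the lowest p on the lower side was at peak6_56439, named in WT H3K4me3 replicate 2. Its counts were 25 and 53 in the WT libraries (78.6 ± 21.9 CPM) against 21 and 9 in the CSE-KO libraries (29 ± 11.7 CPM; SD, n = 2), a log2 fold change of -1.42 (standard error 0.52, edgeR adjusted p = 1). Its H3K23ac went the other way in the mean, at 8.71 ± 3.9 and 10.8 ± 7.87 CPM, within the spread. Its H3K27ac counts were 7 and 5 in the WT libraries against 14 and 4 in the CSE-KO ones, with the 14 in the deepest library. In CPM the groups did not overlap, at 4.84 ± 0.477 against 3.21 ± 0.135, but the counts were too low to be tested. For H3K27ac the corresponding region, from the WT H3K23ac replicate 2 list, had 12 and 19 counts (13 ± 5.82 CPM) in the WT libraries against 12 and 6 (3.75 ± 1.3 CPM) in the CSE-KO ones (log2 fold change -1.88, standard error 0.6, edgeR adjusted p = 1).

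A further test asked, over the 8 libraries of each pair of marks, whether CSE-KO over WT was the same for both (an interaction term). No shared region passed: 0 of 2577 for H3K23ac against H3K27ac, 0 of 2870 for H3K23ac against H3K4me3 and 0 of 2647 for H3K27ac against H3K4me3 (edgeR), where all tested regions gave 0%, 0.00336% and 0%. At an unadjusted p under 0.05 there were 62 (2.41%), 77 (2.68%) and 85 (3.21%), against 13.3%, 10.1% and 4.67% of all tested regions. The rule left out regions with no count in a library, which the background keeps. The shares here and below therefore describe and do not test the set. DESeq2 called 1 shared region in the first contrast (0.0388%, against 0.227% of all regions) and 0 in the others. Its unadjusted p was under 0.05 at 71 (2.76%, against 13.6%), 83 (2.89%, against 7.23%) and 15 (0.567%, against 1.97%) of them. Without WT H3K23ac replicate 1 the first contrast gave 2 shared regions (0.0714%, against 0.00703% of all regions) and the second 47 (1.67%, against 0.545%). The log2 ratios of CSE-KO to WT of single regions had Spearman coefficients between marks of 0.0439, 0.0334 and 0.0659 over the 2916 regions, with 48.8%, 51% and 51.2% of the same sign.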

How the data were processed

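ACT-seq libraries of 3 marks in WT and CSE-KO lung endothelial cells (12 libraries, 2 per group) were analysed from 1 table of raw counts per region and library, deposited without normalization. The submitters' processing notes name ChIPseeker 1.38.0, R 4.3.3, edgeR 4.0.16 and Subread, and the builds GRCm39 and mm10 with no role for either. The sources used here do not give the aligner, the peak caller, duplicate removal or how a read over several regions was counted. No sequence is printed, since positions were not used.

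CPM values are counts scaled to the whole library total. Tests used edgeR 4.0.16 (glmQLFit, glmQLFTest, two-sided) in R 4.3.3 with library totals as size, a filter by filterByExpr (minimum count 10) and p-values adjusted by Benjamini-Hochberg over all regions tested, at 0.05. The standard errors given with edgeR fold changes were derived, as the absolute log2 fold change divided by the square root of the F statistic. DESeq2 1.42.0 was the second tool, with its own size factors in place of library totals. Tested on simulated data, the edgeR fit recovered large changes for H3K27ac and H3K4me3 but none for H3K23ac. Summaries used Python 3.11.15, pandas 2.3.3 and scipy 1.17.1. Alternatives were other size factors, other filters, a replicate block, all 12 libraries in 1 model, stricter membership and each library left out.

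Named regions were the 4 of highest mean CPM, the 2 most even with at least 10 counts everywhere, the most skewed to each mark, and the lowest p per mark and direction. The regions and all rules were chosen with earlier results of these data known. Numbers were not taken to pair the replicates: their differences correlated at -0.00708 (H3K23ac), -0.0891 (H3K27ac) and -0.0548 (H3K4me3).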

Additional observations from a re-analysis of the deposited data

How the results depend on the processing

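Calls over all tested regions, 0 for each mark, became for H3K23ac 1 with no filter, 110 with DESeq2 and 7 with all 12 libraries in the model. For H3K27ac they became 3 with TMM factors, 3 with DESeq2 size factors, 2 with size factors over the shared regions, 8 with no filter and 2 with the replicate block, and for H3K4me3 16 with no filter and 4 with the replicate block. Among the shared regions DESeq2 called 1 for H3K23ac and the fit with no filter 1 for H3K4me3, and the replicate block called 0 for every mark. In the contrasts between marks, H3K23ac against H3K27ac gave 74 with DESeq2 (1 among the shared regions) and 2 with all 12 libraries. H3K23ac against H3K4me3, with 1 call, gave 3 with no filter, 3 with a minimum count of 5, 0 with DESeq2 (2152 at an unadjusted p under 0.05), 3 with the replicate block and 2 with all 12 libraries. Leaving out a library gave 2 to 45 calls for H3K23ac (0 to 6 among the shared regions), 1 to 141 for H3K27ac (0 to 14) and 0 to 263 for H3K4me3 (0 to 23). For the contrasts it gave 0 to 11 (0 to 2), 0 to 395 (0 to 47) and 0 to 6 for H3K27ac against H3K4me3. These fits tested more regions, since a group of 1 library lowers the filter.

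The H3K23ac median log2 ratio moved to 0.0772 (TMM factors), -0.19 (DESeq2 size factors), -0.23 (size factors over the shared regions) and 0.27 (at least 5 counts in every library), and from 0.17 to 1.31 without a library. The H3K4me3 median moved to -0.0890 (TMM factors), -0.10 (DESeq2 size factors) and -0.0902 (size factors over the shared regions) and from -0.0266 to 0.21 without a library, and the H3K27ac median from -0.34 to 0.20. Size factors over the shared regions centre each library on those regions by construction. Raising the minimum count to 2, 3, 5 and 10 raised the median CPM to 17.1, 20.7, 26.4 and 40.3 for H3K23ac and to 47.1, 56.5, 71.3 and 111 for H3K4me3, and from 3 on to 7.19, 8.81 and 13.8 for H3K27ac, by construction. Without own lists the H3K23ac level was 9.19 CPM and the shares were 24.6%, 2.47% and 18.6%. The H3K27ac correlation was 0.575 with at least 5 counts everywhere. The set ran from 2923 to 5169 regions without a library. Of the values of the main comparisons under other settings, 166 stayed within the replicate spread or within 1.5 times and 86 moved further. Of those of single named regions, 68 kept their side of the threshold and 4 newly passed it, and none reversed. The causes were not tested.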

Other observations

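Running numbers within a list placed some shared regions side by side. At 144 of the 2916 (4.94%) the next number of the same list was also a shared region, and 275 (9.43%) had such a neighbour on either side, in runs of up to 4. In the WT H3K23ac replicate 2 list this held for 77 of 821 regions (9.38%), where 1.2% of all rows of that list are shared regions, and in the CSE-KO H3K23ac replicate 2 list for 28 of 729 (3.84%, against 0.75%). The CSE-KO H3K27ac replicate 1 list had 0 such pairs among 123. With each list cut into 10 equal parts, a part held between 8.23% and 13% of the shared regions, the last one the most. Whether running numbers follow the genome is not given in the sources used here.

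Size factors computed over the shared regions, as the median of ratios over 12 libraries uses just these rows, ranged from 0.449 in WT H3K27ac replicate 1 to 2.03 in CSE-KO H3K23ac replicate 1. The biological coefficient of variation of all tested regions was 158% for H3K23ac, 36.4% for H3K27ac and 37.4% for H3K4me3.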
